A study of Mus musculus with 6 samples.

Results

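Chondrocytes of the growth plate stop dividing, enlarge and prepare their matrix for mineral under the control of a small set of transcription factors, and 10 genes of that set were followed here. They were taken by gene name from a table of 43346 genes: Runx1, Runx2 and Runx3, Mef2c, Sp7, Dlx3, Dlx5 and Dlx6, Foxa2 and Foxa3. Each name matched 1 row, and all 10 had enough counts to be tested. Polyadenylated RNA came from primary epiphyseal chondrocytes, which build the cartilage ends of young bones, taken from C57BL/6 mice 5 days old. They were freed with collagenase II in a short and then an overnight digest. There were 3 wild type libraries and 3 libraries from mice null for Girk3, a subunit of G protein-gated potassium channels encoded by Kcnj9. The labels describe the allele no further than Girk3-/- and name no cell type for the loss.

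Runx2 binds DNA through the Runt domain with its partner Cbfb and switches on genes of hypertrophy such as Col10a1 and Mmp13. Mef2c, a MADS box factor, acts upstream of Runx2 and is held back by the class IIa histone deacetylase Hdac4, which parathyroid hormone-related protein keeps in the nucleus. Dlx5 and Dlx6 are homeodomain factors that promote hypertrophy with overlapping roles, Foxa2 and Foxa3 are forkhead factors of the same step, and Sp7 (osterix) acts with and after Runx2 in hypertrophic chondrocytes and osteoblasts.

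Total counts per library ran from 34279516 to 60392837, and Kcnj9 had 0 counts in all 6 libraries, so the genotype labels could not be checked on it. Every animal is labelled male, whereas summed counts of 4 Y-linked genes were 16088 for replicate 1 of the Girk3-null group and at most 7 for any other library. Xist, the RNA of the inactive X chromosome, had 19 counts there and 67346 to 144825 elsewhere. By these counts Girk3-null replicate 1 alone matches its male label, and every other library has the pattern of female cells. Sex is thus not balanced between the groups. Girk3-null replicate 1 therefore stands apart from the rest, and the fold changes of the 10 factors are given with and without it. Defining markers of chondrocytes were high: the summed level of 10 of them, Col2a1, Acan and Sox9 included, was 49490 to 82610 CPM in wild type and 77020 to 120100 CPM in Girk3-null libraries. CPM here is the count scaled to library size with TMM factors, which correct for library composition.

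The DNA at the start of the 3 Runx genes is shown first, because they share a binding site of their own family. RefSeq windows of 250 bases before to 50 bases after a transcription start (GRCm38.p6, the same build as mm10) were used. Of the 10 genes 6 had such windows, 12 in all, and Sp7, Dlx3, Dlx5 and Dlx6 had none. The windows were searched for the Runt word TGTGGT on both strands, which reads ACCACA on the opposite strand. Of the 12 windows 3 held it, 1 for each Runx gene, and in all of those it stood as a pair with starts 8 bases apart. The Runx2 window held 3 words, 1 of them apart from the pair and outside the stretch shown. Capitals mark the words, and each stretch is given 5′ to 3′ on the strand of its gene.
Runx1, chr16:92826025-92826054, minus strand, 21 to 50 bases after the start: cataaacaACCACAgaACCACAagttgggt
Runx2, chr17:44814583-44814612, minus strand, 16 to 45 bases after the start: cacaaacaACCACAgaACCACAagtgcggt
Runx3, chr4:135120503-135120532, plus strand, 142 to 113 bases before the start: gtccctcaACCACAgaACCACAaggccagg
The Runx1 and Runx2 stretches lie inside the listed genes, in the first exon of GENCODE M21 transcripts, and the Runx3 stretch lies upstream of its gene. The longest run common to all 3 was 18 bases, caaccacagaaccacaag. A single TGTGGT stood in 16.8% of all 32851 windows, whereas the pair in 1 direction with this spacing stood in 7 of them, 0.0213%. Besides the Runx genes these were the windows of Gm15462, Gm12236, Olfr24 and Gm16225, the last of which covers the same DNA as the Runx3 window on the other strand. The pair was looked for after the single words had been seen. A match of letters does not show that the site is bound.

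Among target genes of hypertrophy 15 of 20 had a window, and the Runt word stood in 5 of 21 windows. The stretch of Mmp13, the collagenase of the late hypertrophic zone, is given with those of Spp1 and Bglap, genes of mineralised matrix, to show the single word without the pair.
Mmp13, chr9:7272384-7272413, plus strand: attctgccacaaACCACActtaggaagaaa
Spp1, chr5:104434971-104435000, plus strand: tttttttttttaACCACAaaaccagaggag
Bglap, chr3:88384581-88384610, minus strand: ccgcaatcacctACCACAgcatcctttggg
The homeodomain words TAATTA and TAATTG stood in 5.29% and 8.0% of all windows. Among the 6 factors with a window they were found in windows of Mef2c alone. The forkhead word TGTTTAC (3.65% of windows) and the MEF2 motif (0.557%) were found in none of the 12 windows.

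In wild type chondrocytes 5 of the 10 factors stood close together. Levels between genes are compared as RPKM, counts scaled to gene length and library total. Sp7 had the highest mean, 9.51 ± 1.21 RPKM (mean ± SD, n = 3), followed by Runx2 at 9.38 ± 2.17, Foxa3 at 8.98 ± 0.441, Runx1 at 8.59 ± 2.30 and Mef2c at 6.91 ± 0.627 RPKM. Neighbours in that order overlapped between libraries down to Foxa2 at 6.24 ± 0.497 RPKM. Runx3 was lower in every wild type library than Foxa2, at 4.53 ± 0.848 RPKM, and Dlx5 and Dlx3 overlapped each other below it, at 2.48 ± 0.324 and 2.36 ± 0.181 RPKM. Dlx6, whose gene lies beside Dlx5 on chromosome 6, was far below the others at 0.118 ± 0.0222 RPKM, from 11 to 15 counts per library. In Girk3-null libraries Sp7 (13.1 ± 2.82 RPKM) and Runx2 (11.8 ± 1.41) again had the highest means, Mef2c came next at 10.3 ± 2.45, and Dlx5 at 4.24 ± 0.402 RPKM no longer overlapped Dlx3 at 2.22 ± 1.09.

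**Figure D1:**
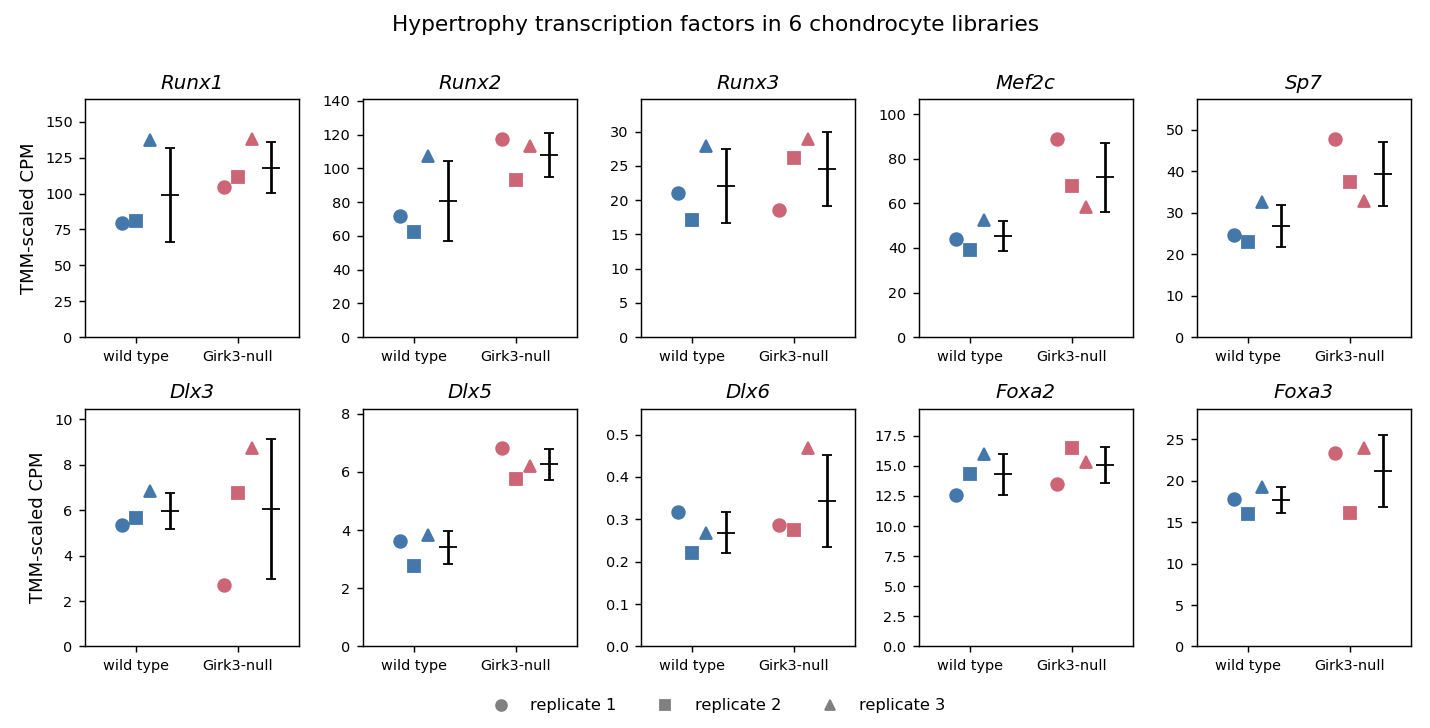
Level of each of the 10 factors in TMM-scaled CPM (y axes, each from 0) in 3 wild type and 3 Girk3-null libraries. Points are libraries, with the replicate given by shape, and bars are mean ± SD. Girk3-null and wild type points do not overlap for Mef2c, Sp7 and Dlx5, and Girk3-null replicate 1 is the highest library for those 3 genes and the lowest for Dlx3.

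The comparison of Girk3-null with wild type chondrocytes asked whether these regulators differ between cells of the 2 genotype labels. Kcnj9 was at 0 counts in wild type libraries too, so these data do not show its RNA in either group. By edgeR's quasi-likelihood test with Benjamini-Hochberg adjustment none of the 10 passed 0.05, where 1 of 17554 genes tested did (0.00570%). At an unadjusted p under 0.05 there were 3 of the 10, Dlx5, Mef2c and Sp7, against 14.5% of all genes. The same 3 were the factors whose groups did not overlap, all higher in Girk3-null libraries, as were 9.86% of all genes, while 0 of the 10 were lower without overlap (10.2% of all genes). DESeq2 called Dlx5 and Mef2c, both higher, against 1.93% of all genes in either direction and 1.03% higher, and limma-voom called none of the 10. All 10 log2 fold changes (Girk3-null over wild type) were above 0, with a median of 0.29, where 51.8% of all genes were positive with a median of 0.01. That count is not stable: Dlx3 and Foxa2 were below 0 when counts were scaled by library size alone, a scaling that lowers the median of all genes to -0.09, and 7 of 10 were positive with the number in the sample title as covariate. A positive median was not particular to the factors. Of the 10 chondrocyte markers 9 were positive and 1 negative, with a median log2 fold change of 0.51. Medians of the marker lists for other cell types ran from -1.45 (muscle), -1.19 (endothelium) and -1.16 (red cell lineage) up to 0.42 (osteoblasts and osteocytes). In bulk RNA a change in the share of cells of a type and a change in RNA per cell cannot be told apart. The part of cell composition in the fold changes of the 10 factors was not tested.

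Dlx5 (ENSMUSG00000029755; chromosome 6, 6877805 to 6882085, minus strand, mm10) had the largest fold change of the 10. It measured 3.62, 2.78 and 3.83 CPM in wild type replicates 1, 2 and 3 and 6.81, 5.77 and 6.20 CPM in the Girk3-null libraries. Every Girk3-null library was above every wild type library, and the 3 Girk3-null values lay close together. The log2 fold change was 0.88 with a standard error of 0.19, and the adjusted p was 0.291 in edgeR and 0.00765 in DESeq2 (0.00765 to 0.814 over all alternatives). It was 0.82 without Girk3-null replicate 1, with an adjusted p of 0.512 in edgeR. No other gene of the table overlaps Dlx5.

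Mef2c (ENSMUSG00000005583; chromosome 13, 83504034 to 83667079, plus strand) measured 43.8, 39.3 and 52.5 CPM in wild type and 88.8, 67.8 and 58.4 CPM in Girk3-null libraries. The groups did not overlap, although Girk3-null replicate 3 and wild type replicate 3 were close. The log2 fold change was 0.67 with a standard error of 0.17, and the adjusted p was 0.291 in edgeR and 0.0412 in DESeq2 (0.0412 to 0.814 over all alternatives). Without Girk3-null replicate 1 it was 0.48 (adjusted p = 0.512 in edgeR). Mef2c is also a gene of muscle and endothelium, and summed markers of both tissues were lower in most Girk3-null libraries. The summed level of 10 endothelial markers, Pecam1 and Cdh5 among them, was 122.8 to 206.8 CPM in wild type and 29.4 to 99.6 CPM in Girk3-null libraries, lowest in replicate 1, where Mef2c was highest. The sum of 10 skeletal muscle markers was 27.4 to 67.1 CPM in wild type and 11.1 to 30.02 CPM in Girk3-null libraries. Their part in the Mef2c difference was not tested.

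Sp7 (ENSMUSG00000060284; chromosome 15, 102356609 to 102366325, minus strand) measured 24.8, 23.0 and 32.6 CPM in wild type and 47.8, 37.5 and 32.8 CPM in Girk3-null libraries. Only a narrow gap parted the groups, between wild type replicate 3 and Girk3-null replicate 3. The log2 fold change was 0.56 ± 0.18 (standard error), the adjusted p was 0.291 in edgeR and 0.121 in DESeq2 (0.0821 to 0.814 over all alternatives), and the fold change was 0.40 without Girk3-null replicate 1. Across the 6 libraries Sp7 and Mef2c ran together with a Pearson r of 0.990 on log2 CPM, the highest of any pair among the 10. The points share their libraries and the value is a description. Sp7 is an osteoblast gene too. Summed, 9 osteoblast and osteocyte markers stood at 5169, 4041 and 5086 CPM in wild type. In Girk3-null libraries the sum was 4352, 6111 and 6637 CPM. By that sum Girk3-null replicate 1, with the highest Sp7 level, lay within the wild type range. By the mean log2 CPM of the same markers it was the highest library. That mean was 3.132, 2.926 and 2.867 in wild type and 3.181, 2.967 and 3.015 in Girk3-null libraries. Of 8 markers tested 6 had positive and 2 negative log2 fold changes, and Sost and Mepe were under 1 CPM in every library. Within the list Bglap2, an osteocalcin gene picked after its values were seen, stood at 0.635, 0.772 and 1.15 CPM in wild type and 5.73, 1.17 and 2.34 CPM in Girk3-null libraries. The part of osteoblast markers in the Sp7 difference was not tested.

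Runx2 (ENSMUSG00000039153; chromosome 17, 44495987 to 44814797, minus strand) measured 72.1, 62.4 and 107.6 CPM in wild type and 117.4, 93.0 and 113.1 CPM in Girk3-null libraries. Wild type replicate 3 lay within the Girk3-null range, and both other wild type libraries lay below it. The log2 fold change was 0.42 ± 0.20 (standard error), with adjusted p = 0.361 in edgeR. It was 0.36 without Girk3-null replicate 1. Leaving out wild type replicate 3 gave 0.68 and leaving out wild type replicate 2 gave 0.26, with adjusted p-values of 0.0655 and 0.814 in edgeR, the lowest and highest over all alternatives. Supt3, a gene of the opposite strand that reaches into the Runx2 locus, shares no exon bases with it in GENCODE M21, while the antisense Runx2os1 shares 519 and had 190 counts over all libraries, 0.735% of the Runx2 count. Gene counts do not tell the isoforms of the distal and proximal Runx2 promoters apart.

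Runx1, best known as a factor of blood formation and also present in early cartilage, measured 79.4, 80.8 and 137.0 CPM in wild type and 104.8, 111.7 and 137.9 CPM in Girk3-null libraries. Runx3, which acts with Runx2 in cartilage and is also a T cell factor, measured 21.1, 17.2 and 27.8 CPM in wild type and 18.6, 26.2 and 28.9 CPM in Girk3-null libraries. Both were highest in replicate 3 of each genotype and overlapped between groups. Their log2 fold changes were 0.25 and 0.16, with standard errors of 0.22 in both, and adjusted p-values of 0.584 and 0.746 in edgeR. Without Girk3-null replicate 1 they were 0.34 and 0.33. With any 1 library left out Runx1 ranged from 0.12 (without wild type replicate 1) to 0.56 (without wild type replicate 3), and Runx3 from 0.0041 (without wild type replicate 2) to 0.36 (without wild type replicate 3). Blood cell markers differed in their order over the libraries. In wild type and Girk3-null replicate 3 neutrophil markers summed to 225.2 and 101.7 CPM and macrophage markers to 131.4 and 113.5 CPM, the lowest sums of each genotype. T lymphocyte markers summed to 8.63, 9.51 and 10.6 CPM in wild type and 10.3, 8.94 and 8.01 CPM in Girk3-null libraries, and erythroid markers to 211.0, 276.1 and 78.4 CPM and to 55.9, 158.8 and 90.02 CPM. The class II antigen gene H2-Eb1, the third closest gene to Runx3 over the libraries (r = 0.992), measured 2.18, 1.23 and 3.37 CPM in wild type and 1.55, 3.35 and 3.86 CPM in Girk3-null libraries. Of the 10 T lymphocyte markers 7 were under 1 CPM in every library. Among these Cd3e, Cd3d and Cd3g, which encode CD3 chains of the T cell receptor complex, were at or under 0.156 CPM. Lck, Cd28 and Il7r reached 1 CPM in at least 1 library. The part of blood cells in the Runx1 and Runx3 levels was not tested.

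The 6 libraries split by the number in the sample title, a label with no stated meaning, into 3 below 200 (wild type replicates 1 and 2, Girk3-null replicate 1) and 3 above. Below 200 the difference of mean log2 CPM, Girk3-null minus wild type, was 0.81 for Runx2, 1.10 for Mef2c, 1.0 for Sp7 and 1.09 for Dlx5. Above 200 it was -0.07 for Runx2, 0.26 for Mef2c, 0.11 for Sp7 and 0.64 for Dlx5. Each side holds 1 library of one genotype, so neither value has an error of its own. The Girk3-null library below 200 is also the only one with the male pattern of Y-linked and Xist counts. Genotype and sex therefore cannot be told apart on that side, while all libraries above 200 had the female pattern. With the title number as covariate the edgeR log2 fold changes were 0.37, 0.68, 0.56 and 0.87 in the same order.

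Dlx3, a homeodomain factor of bone and skin, measured 5.35, 5.64 and 6.85 CPM in wild type and 2.70, 6.76 and 8.72 CPM in Girk3-null libraries. Girk3-null replicate 1 was the lowest of all 6 and Girk3-null replicate 3 the highest. The log2 fold change was 0.02 ± 0.37 (standard error), with adjusted p = 0.988 in edgeR. Leaving out Girk3-null replicate 1 gave 0.38, leaving out replicate 3 gave -0.34 and the title number covariate gave -0.42, so no direction can be given.

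Dlx6 had 15, 12 and 11 counts in wild type and 17, 12 and 15 counts in Girk3-null libraries, with a log2 fold change of 0.33 and a standard error of 0.42 (adjusted p = 0.729 in edgeR). It was 0.45 without Girk3-null replicate 1 and 0.069 without replicate 3. The antisense gene Dlx6os1, which spans the Dlx6 locus without shared exon bases in GENCODE M21, had 134 counts in all, more than Dlx6 in 5 of 6 libraries: 21, 17 and 16 in wild type and 56, 17 and 7 in Girk3-null libraries. Another antisense gene, Dlx6os2, shares 104 exon bases with Dlx6 in GENCODE M21 and had 1 count in all. The annotation and strand setting of the counting are not stated, so reads of Dlx6 and the antisense genes may not have been told apart.

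The forkhead genes varied least. Foxa2, shared between endoderm and hypertrophic cartilage, measured 12.6, 14.3 and 16.0 CPM in wild type and 13.5, 16.5 and 15.4 CPM in Girk3-null libraries, a range of 1.31-fold over all 6. Its log2 fold change was 0.08 with a standard error of 0.15, and 0.16 without Girk3-null replicate 1. Foxa3, its close relative, measured 17.8, 16.0 and 19.2 CPM in wild type and 23.3, 16.1 and 23.9 CPM in Girk3-null libraries. Girk3-null replicates 1 and 3 were above all wild type libraries and replicate 2 was not. The log2 fold change of Foxa3 was 0.26 with a standard error of 0.17 (0.18 without Girk3-null replicate 1, 0.42 without replicate 2 and 0.16 without replicate 3), and adjusted p-values were 0.815 for Foxa2 and 0.485 for Foxa3 in edgeR.

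**Figure D2:**
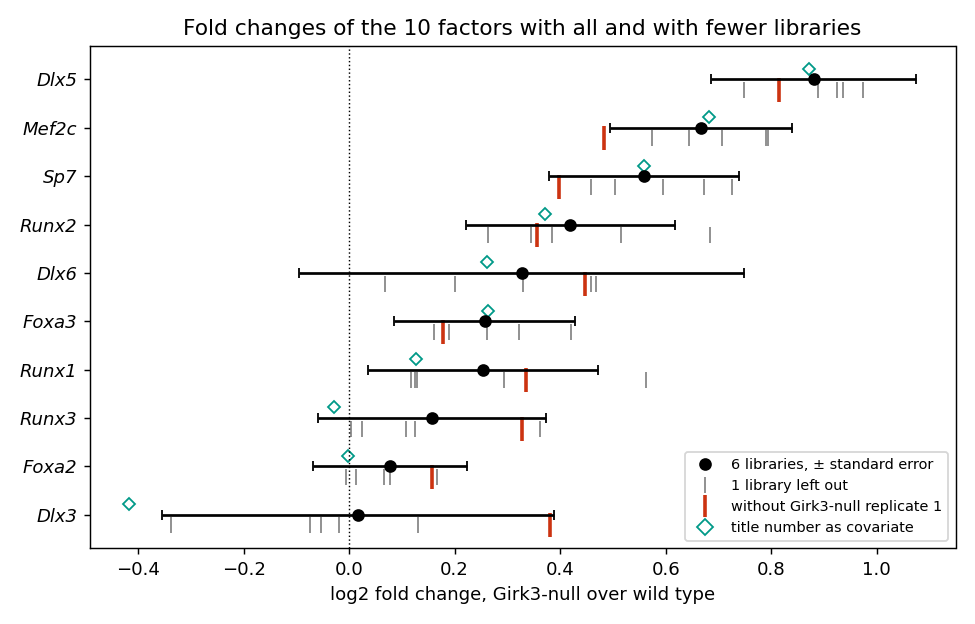
Log2 fold change of each factor, Girk3-null over wild type (x axis), from edgeR with 6 libraries (black, ± standard error), with 1 library left out in turn (grey ticks, red for Girk3-null replicate 1 left out) and with the title number as covariate (open diamonds). Fold changes of Dlx5, Mef2c, Sp7, Runx2, Runx1, Dlx6 and Foxa3 stay above 0 in every setting drawn. Those of Dlx3, Runx3 and Foxa2 lie on both sides.

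Within a family, levels per length can be set as shares. Dlx5 made up 53.8%, 46.3% and 49.5% of the summed RPKM of Dlx3, Dlx5 and Dlx6 in wild type libraries and 80.5%, 60.0% and 55.1% in Girk3-null libraries. Its mean share was 49.9% ± 3.72 (SD, n = 3) in wild type and 65.2% ± 13.5 in Girk3-null libraries, without overlap. The two-sided exact permutation test gave p = 0.10, the smallest that 3 against 3 allows. Leaving out Girk3-null replicate 1 reduced the difference from 15.3 to 7.68 percentage points.

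Runx2 made up 42.8%, 40.8% and 41.5% of the summed RPKM of the 3 Runx genes in wild type libraries. The Girk3-null shares were 51.4%, 41.8% and 42.3%, so replicate 1 alone stood out. The exact permutation test, two-sided, gave p = 0.40, and the difference of 3.48 percentage points was 0.373 without that library.

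**Figure D3:**
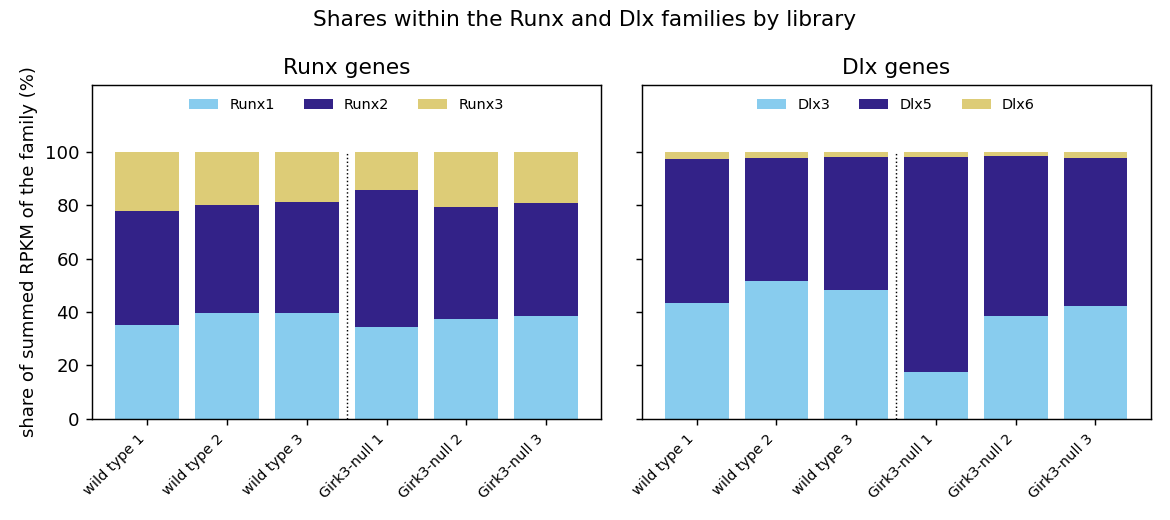
Share of each gene in the summed RPKM of Runx1, Runx2 and Runx3 (left) and of Dlx3, Dlx5 and Dlx6 (right), in percent (y axis), 1 bar per library. Dlx5 takes 46.3% to 53.8% in wild type and 55.1% to 80.5% in Girk3-null libraries, with the largest share in Girk3-null replicate 1.

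Partners and coactivators of Runx2 differed in both directions. Of 16 tested, 7 were positive and 9 negative with a median log2 fold change of -0.02. In edgeR 0 passed, against 0.00570% of all genes, and in DESeq2 0, against 1.93%. At an unadjusted p under 0.05 in edgeR there were 0, against 14.5% of all genes. Groups did not overlap for 0 genes higher and 3 genes lower in Girk3-null libraries, against 9.86% and 10.2% of all genes. Cbfb, the subunit that Runx proteins need for firm DNA binding, measured 79.2 ± 4.22 CPM in wild type and 76.7 ± 8.25 CPM in Girk3-null libraries (log2 fold change -0.05). The 4 with the smallest p-values were Msx2 (0.63), a homeodomain factor, the histone acetyltransferase gene Kat6a (-0.19), Atf2 (-0.17) and Wwtr1 (-0.20), which encodes the Hippo pathway effector TAZ. Adjusted p-values of the 4 were 0.365 to 0.488 in edgeR. Of the 8 tested family relatives 5 were positive and 3 negative, with a median of 0.11. Mef2b, at under 1.5 CPM in every library, had a log2 fold change of 1.24 and Dlx2 of 0.77, while Sp3 (-0.32) and Sp1 (-0.22), which encode zinc finger factors of all tissues, had all Girk3-null values below all wild type values. None of these 4 passed (adjusted p = 0.295 to 0.471 in edgeR).

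Repressors and brakes of hypertrophy had 15 of 22 positive log2 fold changes and a median of 0.08. In edgeR 0 passed, 3 of 22 had an unadjusted p under 0.05 against 14.5% of all genes, and DESeq2 called 1, Tle2, against 1.93%. Tle2, a Groucho corepressor gene, measured 6.60 ± 1.49 CPM in wild type and 11.8 ± 1.53 CPM in Girk3-null libraries (log2 fold change 0.84, standard error 0.20, adjusted p = 0.291 in edgeR). Tle1, of the same family, had a log2 fold change of 0.35, Hdac7 of 0.48 and Hey1, a Notch target that encodes a repressor, of -0.66. Hdac4 measured 36.6 ± 5.30 CPM in wild type and 42.1 ± 3.94 CPM in Girk3-null libraries (0.20, adjusted p = 0.480). Sox9, which holds chondrocytes before hypertrophy, measured 281 ± 97.5 and 360 ± 63.0 CPM (0.36, adjusted p = 0.480).

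Around parathyroid hormone-related protein and the SIK kinases, which act on Hdac4, 9 of 12 log2 fold changes were positive, the median was 0.12, and in edgeR 0 passed (3 of 12 at an unadjusted p under 0.05, against 14.5% of all genes). Pth1r, the receptor gene, had the largest log2 fold change there, 1.34 (DESeq2 called it and no other of the 12, against 1.93% of all genes). Prkaca, a catalytic subunit of protein kinase A, and Crtc1, a coactivator of CREB, had log2 fold changes of 0.32 (0.17 without Girk3-null replicate 1) and 0.30 with adjusted p-values of 0.332 and 0.417 in edgeR.

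Of 20 target genes of hypertrophy tested, 15 were positive and 5 negative, with a median log2 fold change of 0.57, and 0 passed in edgeR. DESeq2 called 7, all higher, against 1.03% of all genes. Groups did not overlap for 9 genes higher and 1 gene lower in Girk3-null libraries, against 9.86% and 10.2% of all genes. Without Girk3-null replicate 1 the median was 0.30, with 16 of 20 positive. The 4 smallest p-values were those of Alpl, Pth1r, Smpd3 and Phospho1, 3 of which encode enzymes of mineralisation or lipid turnover, and earlier results of these data were known when the list was drawn up. Alpl measured 29.0, 25.4 and 32.7 CPM in wild type and 96.1, 83.5 and 63.3 CPM in Girk3-null libraries. Its log2 fold change was 1.48 (standard error 0.17, adjusted p = 0.129 in edgeR and 4.9e-11 in DESeq2), and 1.34 without Girk3-null replicate 1. Smpd3, the neutral sphingomyelinase gene, measured 65.8, 55.7 and 89.3 CPM in wild type and 488.7, 271.6 and 146.0 CPM in Girk3-null libraries (log2 fold change 2.11, standard error 0.39, adjusted p = 0.291 in edgeR and 0.00782 in DESeq2), and its log2 fold change was 1.58 without Girk3-null replicate 1. It kept the order of Mef2c and Sp7 over the Girk3-null libraries, highest in replicate 1 and lowest in replicate 3.

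Col10a1, the collagen of hypertrophic cartilage and a direct Runx2 target, measured 2454, 2047 and 3453 CPM in wild type and 975.5, 2336 and 3204 CPM in Girk3-null libraries. Girk3-null replicate 1, with the highest Runx2 level, had the lowest Col10a1 level, and the log2 fold change of -0.29 (standard error 0.39, adjusted p = 0.740 in edgeR) was 0.07 without that library. The RPKM ratio of Col10a1 to Runx2 was 96.1, 92.6 and 90.6 in wild type and 23.5, 70.9 and 80.0 in Girk3-null libraries, with no overlap and no test made. Mmp13 measured 1684, 1464 and 2113 CPM in wild type and 2988, 1814 and 1983 CPM in Girk3-null libraries (log2 fold change 0.37, adjusted p = 0.447 in edgeR), and without Girk3-null replicate 1 the fold change was 0.12. Its ratio to Runx2 overlapped, at 64.9 to 77.5 in wild type and 57.9 to 84.1 in Girk3-null libraries. Further RPKM ratios were formed. Those of Runx2 to Runx1, to Sp7 and to Cbfb and of Foxa3 to Foxa2 overlapped between groups. Those of Dlx5 to Dlx3 and of Mef2c to Mef2a did not. Ihh, the signal of prehypertrophic cells, measured 10.5, 9.41 and 10.8 CPM in wild type and 12.8, 21.8 and 11.4 CPM in Girk3-null libraries (log2 fold change 0.58, adjusted p = 0.329 in edgeR), highest in Girk3-null replicate 2, without which the fold change was 0.24.

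**Figure D4:**
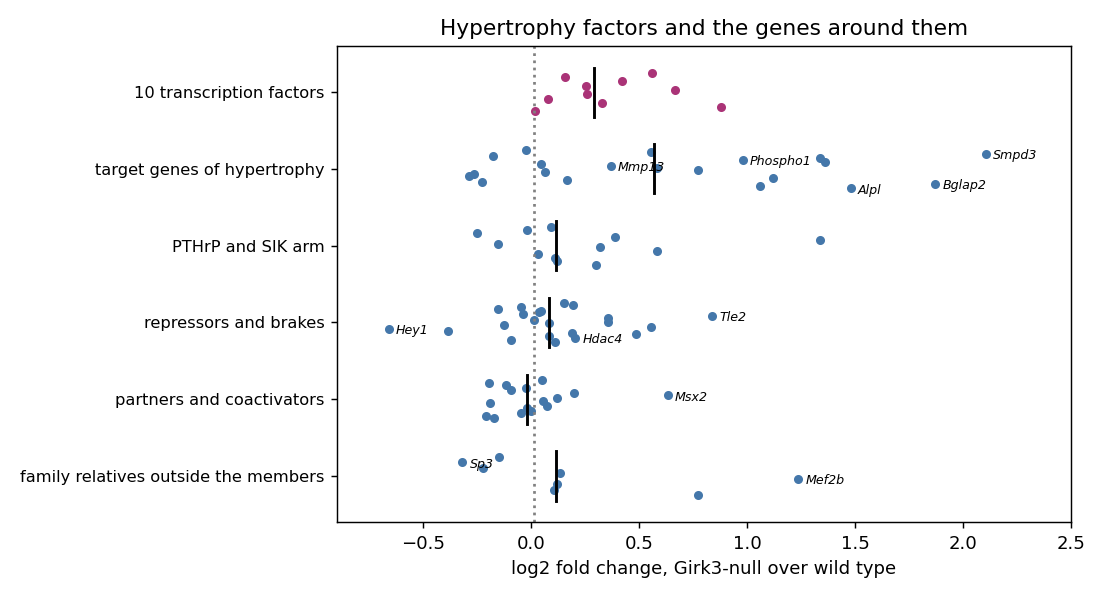
Log2 fold change, Girk3-null over wild type (x axis), of the 10 factors (top row) and of the tested genes of 5 lists around them, 1 point per gene, with the median of each row as a black bar and the median of all genes tested as a dotted line. The medians are 0.29 for the 10 factors, 0.57 for target genes and -0.02 for partners, and some genes stand in more than 1 list.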

How the data were processed

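For each library the deposited table has 1 column of raw counts per gene and 1 of RPKM, in which the authors corrected for gene length and depth, per the labels' protocols. The submitters' processing notes name STAR 2.5.2b, bcl2fastq 2.19.0 and the build mm10. How genes were counted, with which annotation and strand setting, is not given in the sources used here. All 37 mitochondrial genes were at 0. Groups follow genotype. Replicate numbers follow deposit order and pair no samples. The labels give 3 mice per genotype, and p-values measure the spread between these libraries.

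Counts of all 6 libraries were fitted in edgeR 4.0.16 (quasi-likelihood F-test, genotype alone, TMM factors, R 4.3.3). filterByExpr with a minimum count of 10 and total of 15 kept 17554 genes. Benjamini-Hochberg adjustment ran over all of these, and 0.05 was the threshold. Each standard error was derived from the fold change and its F statistic. Log2 CPM had a prior count of 2. Alternatives were DESeq2 1.42.0, limma 3.58.1 (voom, and log2(RPKM + 0.1) and log2(RPKM + 1)), other scaling, no filter, the title number as covariate and each library left out. On simulated data for Girk3-null against wild type over 17554 genes 72.8% of genes changed 2-fold and 97.9% of those changed 4-fold were recovered, with 8.03% false among the calls. Changed genes were drawn only from those whose mean CPM had a log2 above 1, a level that Dlx6 does not reach. Each gene was drawn independently, without effects shared by a library, so these rates cannot be carried over to the real libraries. There Smpd3, at a log2 fold change of 2.11, had an adjusted p of 0.291 in edgeR. Motifs were searched in RefSeq windows of GRCm38.p6.

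The 10 factors and all lists were chosen with earlier results of these data known. Named genes were the 10 factors, any list gene past the threshold, the 4 with the smallest p-values in each list, Col10a1, Mmp13, Ihh, Cbfb, Hdac4 and Sox9, genes overlapping a factor, and the 3 genes closest to each factor, of which 1 is not reported here and others are left out for brevity. Mef2a, Spp1, Bglap, Bglap2 and single marker genes were named beside a result after their values were seen. Protein sequences were not used here.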

Additional observations from a re-analysis of the deposited data

How the results depend on the processing

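Without a filter on low counts edgeR called 53 genes, against 1 with the filter. DESeq2, run on the same 17554 filtered genes, called 339. Library size only, limma-voom, the title number covariate, log2(RPKM + 0.1) and log2(RPKM + 1) each called 0, and leaving out 1 library gave 0 to 74, the highest without wild type replicate 3. At an unadjusted p under 0.05 there were 2227 to 3286 genes with all 6 libraries and 966 to 4180 with 5. DESeq2 brought Dlx5 (log2 fold change 0.88) and Mef2c (0.66) past the threshold. Dlx3 turned negative with library size only (-0.094), limma-voom (-0.23), the title number covariate (-0.42), log2(RPKM + 0.1) (-0.22) and log2(RPKM + 1) (-0.12), and ranged from -0.34 to 0.38 with 1 library left out. Foxa2 did so in the same order of settings, limma-voom apart, at -0.026, -0.0024, -0.027 and -0.023, and ranged from -0.0057 to 0.17. Runx3 was -0.028 and Cbfb 0.011 with the title number covariate. With 1 library left out Cbfb ranged from -0.13 to 0.031 and Col10a1 from -0.68 to 0.065. Runx1, Runx2, Mef2c, Sp7, Dlx5, Dlx6 and Foxa3 kept their sign in all 14 settings. List medians moved for family relatives (-0.083 with the title number covariate, -0.14 to 0.18 with 1 library left out), partners (-0.13 with library size only and -0.13 with log2(RPKM + 0.1)), repressors (-0.031 and -0.044 in the same settings) and target genes (0.30 to 0.75 with 1 library left out). The cause was not tested. No paired analysis was possible because replicate numbers follow deposit order and pair no samples. With 3 libraries per group, changes below 2-fold, as for 10 of the 10 factors, were not simulated, and counts of 11 to 17 limit Dlx6.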

Other observations

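The genes whose log2 CPM ran closest to each factor over the 6 libraries were taken from 12866 other tested genes whose mean log2 CPM reached 1 (12867 for Dlx6, which lies below that level itself). With so many genes and 6 libraries a high Pearson r is found for nearly any profile, so the values describe these libraries only. Closest to Runx2 was Mast3 (r = 0.999), followed by Shisa5 and Pitpnm2 (0.998 each). Mef2c stood closest to Klhl29 (0.997), Cand2 (0.997) and Ergic3 (0.996), and Sp7 to Grn, the progranulin gene, and to Os9 (0.998 each). Ephb6, an ephrin receptor gene (0.997), Mcoln3 (0.993) and Csad (0.993) were closest to Dlx5. For Dlx3 these were Il20rb (0.999), a cytokine receptor gene, Ino80d (0.995) and Ube2o (0.993). The closest genes to the other factors were Cdh23 for Runx1 (0.993), Cspg4 for Runx3 (0.996), Zfp598 for Dlx6 (0.994), Ercc4 for Foxa2 (0.979) and Gm26572 for Foxa3 (0.983). None of the genes closest to a factor was another of the 10.

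The factors fell into a group that ran together and others that did not. Besides Sp7 with Mef2c (r = 0.990 over 6 libraries), Dlx5 had r = 0.915 with Mef2c and 0.885 with Sp7, and Runx2 had r = 0.854 with Sp7 and 0.806 with Mef2c. Runx1 ran with Runx2 (0.851) and Runx3 (0.831), while Runx3 and Mef2c had r = 0.149. Dlx3 had r = -0.481 with Mef2c and -0.442 with Sp7. Girk3-null replicate 1 held the highest Mef2c, Sp7 and Dlx5 levels and the lowest Dlx3 level, and the correlations were not recomputed without it.

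Mef2c was also set against Mef2a, a family member with the same DNA word. The RPKM ratio of Mef2c to Mef2a was 0.301, 0.261 and 0.317 in wild type and 0.495, 0.449 and 0.342 in Girk3-null libraries, without overlap. Mef2a itself measured 135.1, 140.2 and 153.8 CPM in wild type and 166.9, 140.3 and 158.6 CPM in Girk3-null libraries.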
